A study of Mus musculus with 9 samples.

Results

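The step from day 6 to day 9 of reprogramming was followed in mouse embryonic fibroblasts on their way to induced pluripotent cells. It was read from 6 of the 9 libraries of the series, namely the 3 libraries of day 9 and the 3 of day 6, paired by arm, with the 3 libraries of day 12 as a further time point. Every arm consisted of fibroblasts of the strain C57Bl/6cJ that had received plasmids for Oct4, Sox2, Klf4 and c-Myc and were kept in mouse embryonic stem cell medium containing LIF, a cytokine that maintains pluripotency. The arms differed in the short hairpin RNA, delivered in the pRetroSuper vector. The Hnrnpk arm carried a hairpin against the RNA-binding protein hnRNP K. The lincRNA-p21 arm carried one against the p53-induced non-coding RNA of the gene Trp53cor1. The control arm carried one against luciferase, which mouse cells lack. Each arm has 1 library per day, described as merged replicates, and the sources used here do not give the number merged. No untransfected fibroblasts and no finished pluripotent line were analysed here, so day 6 is the baseline and the cultures of both days had already received the factors. The labels describe no sort of the cells before RNA extraction. In bulk samples of this kind, fewer cells of a type and less RNA per cell cannot be told apart.

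Fibroblasts are mesenchymal cells, loosely attached and held by matrix contacts. Pluripotent cells form an epithelium, held by E-cadherin and tight junctions. Reprogramming is known to pass through a mesenchymal-to-epithelial transition, in which repressors such as Snail and Zeb are lost and junction genes come on, and only later to reach the endogenous pluripotency network of Nanog, Esrrb, Sall4 and their partners. A shift to glycolysis and the loss of the regional Hox code of the starting fibroblast are also known parts of the process.

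The deposited table holds 12550 genes in a scaled signal with no read counts, and tests covered the 12541 genes whose mean signal over the 9 libraries was at least 20. Column totals differed by 0.025% and the largest value was 118715 in every library, so depth is unknown. The values of the most abundant genes often repeat across libraries, as they do for Col1a2, Pou5f1 and Ldha below. A difference is that of log2(signal + 10), day 9 minus day 6, averaged over the 3 arms, and it understates the change of genes with low signal. A gene was called when its Benjamini-Hochberg adjusted p in limma was under 0.05. With 1 merged library per arm and day, the p-values measure no spread between replicate cultures. They rest on how far day differences, those of day 12 included, varied between the arms, and on the spread of the other genes. Signals of the arms are given in the order Hnrnpk, lincRNA-p21, luciferase throughout.

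The labels were checked first on the hairpin targets. Hnrnpk had signals of 17016, 29972 and 26944 on day 9, against 11349, 31142 and 31243 on day 6, and was lowest in its own arm on both days. Trp53cor1 stood at 137, 122 and 237 on day 9, against 131, 90.5 and 286.5 on day 6, and was lowest in its own arm and nearly as low in the Hnrnpk arm. Neither target was called between the days (0.11, limma adjusted p = 0.636, and 0.06, limma adjusted p = 0.765). Cdkn1a, the p53-induced inhibitor of cyclin-dependent kinases that lies beside Trp53cor1, was at 11172.5, 11286.5 and 11815 on day 9, against 15118, 14594 and 12063.5 on day 6. Its day 9 libraries were all below its day 6 libraries, but the difference of -0.28 was not called (limma adjusted p = 0.0971).

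Day 9 differed from day 6 across much of the table. Of 12541 genes, 2376 were called higher on day 9 (18.9%) and 2632 lower (21%), and 574 of the higher (4.58% of the genes) and 482 of the lower (3.84%) changed at least 2-fold. All but 16 of the 5008 called genes (39.9%) moved the same way in all 3 arms. The call depends on how little the day difference varied between the arms, so this agreement follows largely from the call. Of all 12541 genes, called or not, 3921 rose and 4117 fell in all 3 arms. The lowest day 9 library lay above the highest day 6 library for 2749 genes (21.9%), and the highest day 9 library lay below the lowest day 6 library for 2883 genes (23%). The median of all genes was -0.01. The number of calls was 3062 without the luciferase day 9 library, 3113 without the lincRNA-p21 day 9 library and 3185 without the Hnrnpk day 9 library.

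The day 6 libraries also stood apart in entries that seldom serve as markers of a cell state. Replication-dependent histone genes have transcripts that end in a stem-loop and carry no poly(A) tail. Of 20 such genes, 16 were lower on day 9 and 2 (Hist1h2bk and Hist1h1c) higher, against 21% and 18.9% of all genes. Hist1h2ap had signals of 301, 192 and 208 on day 9, against 2661, 3696 and 7543 on day 6. Pseudogenes as a class went both ways, with 20 of 76 higher and 20 lower (18.9% and 21% of all genes) and a median of 0.049. The ribosomal protein pseudogene Rps2-ps6, chosen after its values were seen, was lower (486.5, 445.5 and 359.5 on day 9, against 2540, 2919 and 3823 on day 6) while the parent gene Rps2 was higher. Snurf was listed at 385, 441.5 and 431 on day 9 and at 0 in every day 6 library. Snrpn, which shares its transcript, was at 4334, 3083.5 and 3102 on day 9, against 3356.5, 5231.5 and 2871 on day 6, and was not called (-0.09, limma adjusted p = 0.751). Among the fifth of genes with the shortest summed exon length 24.8% were higher on day 9, and among the fifth with the longest 14.6%. Day cannot be told apart from any difference in preparation, sequencing or read assignment between the day 6 libraries and the others, and the part of such differences in the results that follow was not tested. An alternative chosen after seeing the data left out histone genes, pseudogenes and the 33 tested genes at 0 in any library. It gave 2345 genes higher and 2604 lower.

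Junction and cytoskeletal genes of epithelia rose as a group. Of 36 genes, 29 were higher on day 9 and 0 lower (18.9% and 21% of all genes), with a median difference of 1.77. In 27 of the 36 the lowest day 9 library lay above the highest day 6 library (21.9% of all genes). The count was 29 or 30 whichever single library was left out. Before their values, the promoters of 4 of these genes are shown, because they hold several copies of the E-box CACCTG, the sequence that Snail and Zeb proteins are known to bind on E-cadherin. Each run covers 250 bases before and 50 after the RefSeq start on GRCm38.p6, the E-boxes of either strand are in capitals, and CAGGTG is the same box read on the other strand.
Cldn4, chr5:134946885-134947184, minus strand: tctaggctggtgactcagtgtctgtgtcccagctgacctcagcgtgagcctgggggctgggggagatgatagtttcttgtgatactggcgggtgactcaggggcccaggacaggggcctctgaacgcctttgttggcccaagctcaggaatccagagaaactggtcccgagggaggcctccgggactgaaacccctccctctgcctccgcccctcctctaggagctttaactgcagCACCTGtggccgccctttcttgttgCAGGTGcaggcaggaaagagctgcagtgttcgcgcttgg
Epcam, chr17:87635729-87636028, plus strand: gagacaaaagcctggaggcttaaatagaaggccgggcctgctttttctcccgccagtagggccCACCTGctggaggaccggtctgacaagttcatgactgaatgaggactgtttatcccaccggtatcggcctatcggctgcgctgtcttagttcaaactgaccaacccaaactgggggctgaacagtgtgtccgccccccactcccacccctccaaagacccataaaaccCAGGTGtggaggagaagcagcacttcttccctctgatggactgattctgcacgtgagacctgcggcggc
Ap1m2, chr9:21312284-21312583, minus strand: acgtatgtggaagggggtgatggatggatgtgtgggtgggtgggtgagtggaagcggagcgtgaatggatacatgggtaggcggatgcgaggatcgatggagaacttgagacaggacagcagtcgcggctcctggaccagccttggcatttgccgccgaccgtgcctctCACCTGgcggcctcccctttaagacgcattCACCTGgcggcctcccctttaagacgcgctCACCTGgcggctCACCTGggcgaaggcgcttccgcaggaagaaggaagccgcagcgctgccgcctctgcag
Crb3, chr17:57061951-57062250, plus strand: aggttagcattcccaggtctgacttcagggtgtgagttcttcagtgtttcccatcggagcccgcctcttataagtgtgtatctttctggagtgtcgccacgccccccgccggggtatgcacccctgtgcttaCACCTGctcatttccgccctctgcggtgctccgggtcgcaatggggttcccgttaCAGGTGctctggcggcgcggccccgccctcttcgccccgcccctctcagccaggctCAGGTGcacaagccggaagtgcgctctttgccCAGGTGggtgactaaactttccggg

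The Cldn4 and Epcam promoters each hold 2 such boxes, and those of Ap1m2 and Crb3 hold 4 each. These genes were chosen after their values and sequences were seen. A promoter was found for 22 of the 36 junction genes, and 16 of the 22 (72.7%) hold at least 1 CACCTG on either strand, whereas 16.8% of the 9287 promoters of tested genes do. A match is a description of the sequence and not evidence that a factor was bound.

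Cldn4, a tight junction claudin, had signals of 1494, 620.5 and 610 on day 9, against 115, 27.5 and 32 on day 6 (3.85, SE 0.16, limma adjusted p = 5.29e-06). Epcam, the epithelial adhesion molecule, had 3912, 1669 and 2174 on day 9, against 491, 209 and 284 on day 6 (2.93, SE 0.11, limma adjusted p = 3.74e-06). Krt7, a keratin of simple epithelia, had 1724.5, 845 and 1324.5 on day 9, against 135.5, 47.5 and 76.5 on day 6 (3.81, SE 0.10, limma adjusted p = 8.4e-07). For these genes every day 9 library was far above every day 6 library, and on each day the Hnrnpk arm was the highest. Cldn7, another claudin (3.51), Pkp3, a desmosomal plakophilin (3.28), and Prss8, a membrane protease of epithelia (3.05), rose as well, with limma adjusted p of 8.4e-05 or less. Cdh1, which encodes E-cadherin, moved less. Its signals were 3214.5, 1360.5 and 1135 on day 9, against 1235, 553 and 772.5 on day 6 (1.07, SE 0.16, limma adjusted p = 0.00136). The libraries of the days overlapped in Cdh1, because the day 6 library of the Hnrnpk arm stood above the day 9 library of the luciferase arm, while each arm was higher on day 9 than on its own day 6. Ocln, which encodes occludin of tight junctions (2.31, limma adjusted p = 2.38e-05), and the simple keratins Krt8 (1.73, limma adjusted p = 0.000277) and Krt18 (2.96, limma adjusted p = 0.00124) rose. Krt18 reached 1048.5 in the Hnrnpk arm on day 9 but 184.5 and 221 in the others, against 61, 22 and 34 on day 6.

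Regulators of epithelia were mostly higher too. Of 12 genes, 8 rose and 1 fell (18.9% and 21% of all genes), with a median of 0.94, and 2 fell without the Hnrnpk day 6 library. Esrp1, the splicing regulator of epithelial isoforms, had 855.5, 458.5 and 576.5 on day 9, against 83, 27 and 58 on day 6 (3.33, SE 0.16, limma adjusted p = 1.15e-05). Grhl2, a Grainyhead factor that activates junction genes (1.96, limma adjusted p = 0.00141), and the Ets factors Elf3 (1.79, limma adjusted p = 0.000882) and Ehf (1.31, limma adjusted p = 0.00206) rose. Klf5, a Krüppel-like factor of epithelia and of embryonic stem cells, was the member that fell, to 308, 205 and 196 on day 9, against 649.5, 451 and 539 on day 6 (-1.19, SE 0.11, limma adjusted p = 0.000225).

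**Figure D1:**
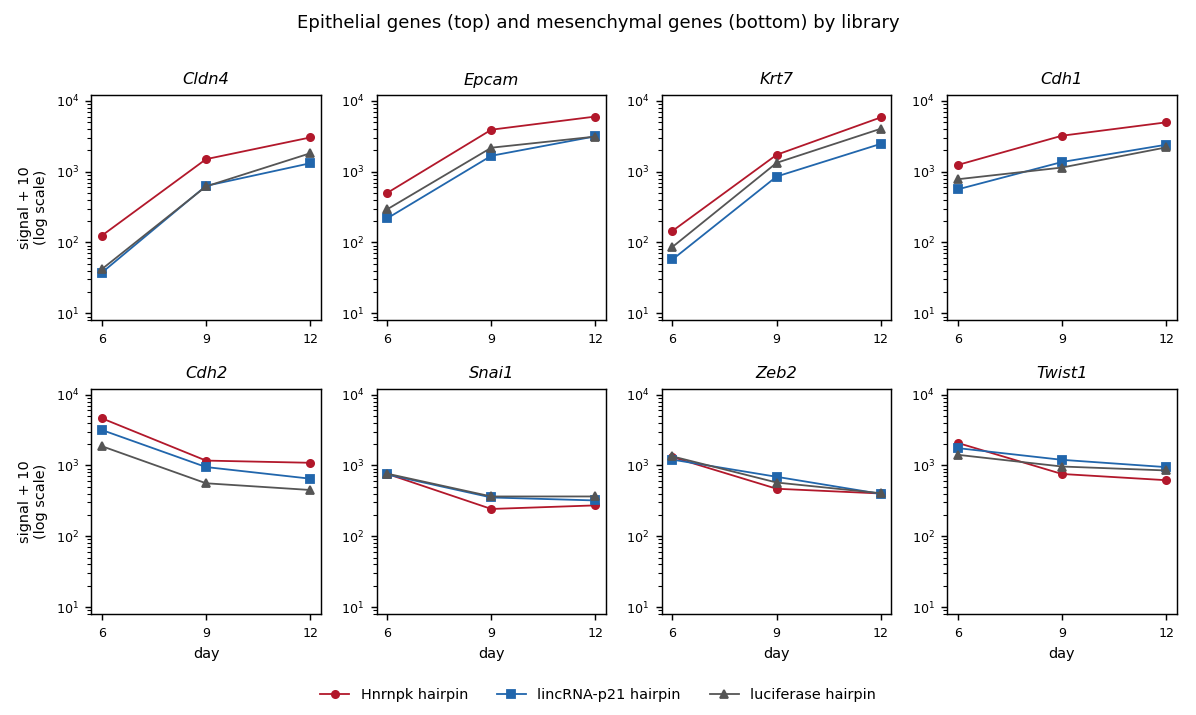
Signal with 10 added (log scale) on days 6, 9 and 12 for 4 epithelial genes (top) and 4 mesenchymal genes (bottom), 1 library per arm and day, joined by arm. Cldn4, Epcam and Krt7 climb between days 6 and 9 in every arm, Cdh1 climbs less, and Cdh2, Snai1, Zeb2 and Twist1 decline.

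Transcription factors and cadherins of mesenchymal cells declined as a group. Of 18 genes, 16 fell and 0 rose (21% and 18.9% of all genes), with a median of -1.13, and the highest day 9 library lay below the lowest day 6 library in 16 of the 18 (23% of all genes). Cdh2, which encodes N-cadherin, fell to 1162.5, 940 and 550.5 on day 9, against 4631.5, 3164 and 1863 on day 6 (-1.82, SE 0.11, limma adjusted p = 2.63e-05). Snai1, which encodes the repressor Snail, fell to 233, 343 and 355 on day 9, against 751.5, 737 and 756.5 on day 6 (-1.27, SE 0.13, limma adjusted p = 0.000338). Its paralog Snai2 fell by 1.15 (limma adjusted p = 0.0015) and the repressor Zeb2 by 1.17 (limma adjusted p = 0.000483). Zeb1, the other Zeb repressor, was at 947.5, 1072 and 1173 on day 9, against 1325, 1176 and 1339.5 on day 6. Its day 9 libraries were all the lower, but the difference of -0.27 was not called (limma adjusted p = 0.0629). Foxc2, a forkhead factor of mesenchyme, had the most negative difference of the list (-1.90, limma adjusted p = 0.000561). Osr1 (-1.80), Prrx2 (-1.51), Foxf1 (-1.38) and Twist2 (-1.37), transcription factors of embryonic mesenchyme, fell with limma adjusted p of 0.00338 or less. Twist1 fell by 0.85 (limma adjusted p = 0.00931). Without the Hnrnpk day 9 library its difference was -0.71 and no longer called (limma adjusted p = 0.0551), and without the Hnrnpk day 6 library it was -0.54 and called.

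Effector genes of the fibroblast were read next. Of 12 fibroblast markers, 2 fell (Dcn and Pdgfrb) and 0 rose (21% and 18.9% of all genes), and their summed signal ranged over 123038 to 204122 on day 9, against 176831 to 242772 on day 6. Col1a2, a chain of type I collagen, was among the most abundant entries on both days, at 62336, 118715 and 118715 on day 9, against 118715 in all 3 libraries of day 6. The value 118715 is the largest of the shared scale, so a rise above day 6 could not be seen. Col1a2 was not called (limma adjusted p = 0.253), and the size of its difference is not interpreted. Col1a1, Thy1 and Postn were not called either (limma adjusted p of 0.0773 to 0.294). Dcn, which encodes the matrix proteoglycan decorin, fell by 0.89 (limma adjusted p = 0.00483). There was 1 fall in the marker list without the Hnrnpk day 6, the Hnrnpk day 9 or the lincRNA-p21 day 6 library, and 1 rise without either of that Hnrnpk pair. Of collagens and matrix genes 7 of 39 were higher and 7 lower, near the 18.9% and 21% of all genes, with a median of -0.06, which was 0.0076 without the Hnrnpk day 9 and 0.041 without the lincRNA-p21 day 6 library. The lower count was 13 without the luciferase day 6 library, 2 without the Hnrnpk day 9 library, 3 without the lincRNA-p21 day 6 library and 4 without either the Hnrnpk day 6 or the lincRNA-p21 day 9 library. Eln, which encodes elastin, had 1196, 3277 and 3984 on day 9, against 453, 752.5 and 1151 on day 6, with no overlap (1.76, limma adjusted p = 0.000375). Fbln5, which helps assemble elastic fibres, fell to 4605, 7056.5 and 5310.5 on day 9, against 14223, 18432 and 7121 on day 6 (-1.14, limma adjusted p = 0.00605). P4ha1, a prolyl hydroxylase for collagen, rose by 0.83 (limma adjusted p = 0.000458).

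Of 27 contractile genes and targets of the serum response factor SRF, 11 fell and 0 rose (21% and 18.9% of all genes), with a median of -0.35. The count of falls was 4 without the Hnrnpk day 9 library, 6 without either lincRNA-p21 library of days 6 and 9, and 7 without the Hnrnpk day 6 library. Mkl1, the actin-sensing coactivator of SRF, fell to 769.5, 807.5 and 733.5 on day 9, against 1588, 1704.5 and 1427 on day 6 (-1.02, SE 0.11, limma adjusted p = 0.000371). Filip1l, a regulator of cell migration, fell by 1.15 (limma adjusted p = 0.00157). Of 21 promoters found for the list, 6 (28.6%) hold a CArG box, the SRF binding sequence, on either strand, whereas 1.28% of the 9287 promoters do. The list was chosen to include SRF targets, so a high share follows largely from that choice. Among the members that fell, 2 of the 9 promoters found (22.2%) hold the box. Among 24 TGF-beta response genes, 3 rose (Id1, Id3 and Skil) and 4 fell (Tgfb1, Tgfb2, Pmepa1 and Bmp4), shares no higher than the 18.9% and 21% of all genes. Tgfb1, the ligand itself, fell to 371, 404 and 407 on day 9, against 898, 1037 and 787 on day 6 (-1.18, limma adjusted p = 0.000581). Pmepa1, a feedback inhibitor induced by the pathway, fell by 1.20 (limma adjusted p = 0.000375). Id1 (0.90) and Id3 (0.97), inhibitors of basic helix-loop-helix factors that BMP signals induce, rose (limma adjusted p = 0.00473 for each). Without the luciferase day 6 library 10 members of this list fell.

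Hox genes fell nearly throughout. They encode the homeodomain factors that record where along the body axis a fibroblast came from. Of 32 measured genes, 29 fell and 0 rose (21% and 18.9% of all genes), with a median of -1.13, and leaving out a single library gave 22 to 30 falls. Hoxa4 stood at 22.5, 24.5 and 23 on day 9, against 125.5, 117 and 139 on day 6 (-2.04, SE 0.19, limma adjusted p = 0.000202). Hoxc9 stood at 62, 60 and 77.5 on day 9, against 301.5, 280.5 and 294.5 on day 6 (-1.99, SE 0.14, limma adjusted p = 6.87e-05). In both genes the days were far apart and the arms close together. The clusters were unequal. The median difference was -1.57 over the 6 Hoxc genes, -1.49 over the 8 Hoxb genes, -1.13 over the 11 Hoxa genes and -0.49 over the 7 Hoxd genes. All the measured Hoxb and Hoxc genes were called, as were 10 of the Hoxa and 5 of the Hoxd genes. Hoxd13, the last gene of its cluster and a factor of the distal limb, was at 323, 439 and 375.5 on day 9, against 671.5, 839 and 873 on day 6 (-1.05, limma adjusted p = 0.000764). The difference between clusters was not tested.

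**Figure D2:**
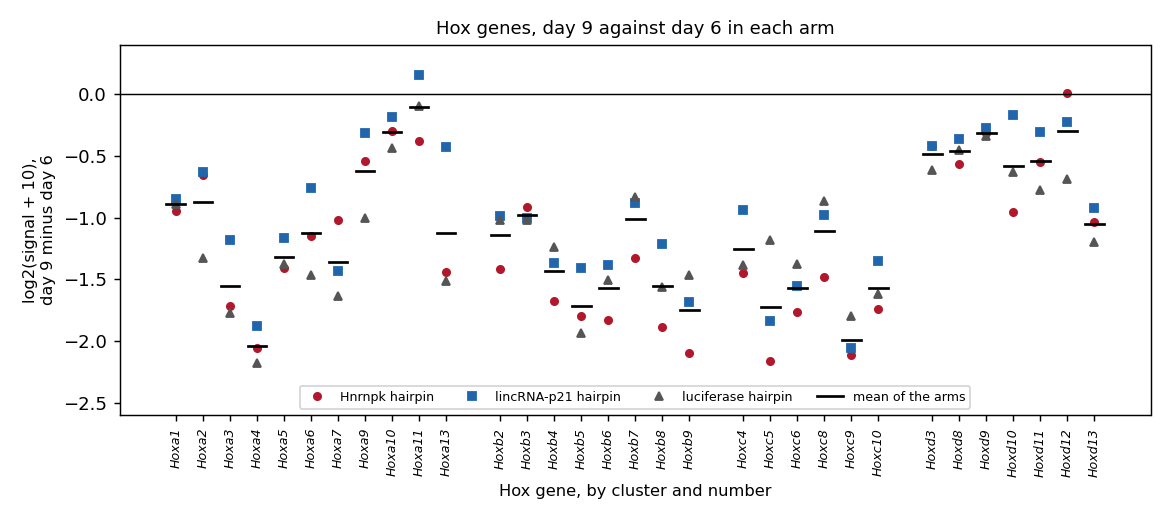
Difference in log2(signal + 10), day 9 minus day 6, for the 32 measured Hox genes in cluster order, with a point for each arm and a bar for the mean of the arms. The means of Hoxb and Hoxc genes lie between -0.98 and -1.99, while most Hoxd genes and Hoxa9 to Hoxa11 lie nearer 0.

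Skin genes rose along with those of simple epithelia. Of 14 keratinocyte markers, 11 were higher on day 9 and 0 lower (18.9% and 21% of all genes), with a median of 2.08, and 11 were higher whichever single library was left out. Their summed signal ranged over 10712.5 to 19553 on day 9, against 1833 to 3873.5 on day 6. Of the 14 markers 2 were lower in all 3 arms without a call, and 1 was called lower without the luciferase day 6 library. Trp63, a regulator also in the marker list, was not analysed here. Krt6a, a keratin of activated and wounded epidermis, had 5047.5, 2850 and 3056 on day 9, against 424.5, 232 and 129 on day 6 (3.86, SE 0.21, limma adjusted p = 2.27e-05). Its near-identical paralog Krt6b (3.73), whose reads can be mistaken for those of Krt6a, and the stress keratins Krt16 (2.72) and Krt17 (3.04) rose with limma adjusted p of 2.49e-05 or less. Krt5, the keratin of basal cells, differed between arms, with 804, 120 and 74.5 on day 9, against 39.5, 18 and 8 on day 6 (2.83, SE 0.51, limma adjusted p = 0.00326). Lor, which encodes the cornified envelope protein loricrin, was low on both days, at 185, 105.5 and 56.5 on day 9, against 12, 17 and 8 on day 6 (2.38, limma adjusted p = 0.000458).

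Genes of the skin surface were also among the 15 largest rises, of which Snurf was the first (5.42). S100a14, a calcium-binding protein of epithelia on chromosome 3, had 1118, 603 and 917.5 on day 9, against 33, 12.5 and 17 on day 6 (4.86, SE 0.11, limma adjusted p = 3.95e-07). Asprv1, a protease of the upper epidermis, had 649, 546 and 392 on day 9, against 30, 6 and 2.5 on day 6 (4.72, SE 0.21, limma adjusted p = 6.61e-06). Klk7, a kallikrein that sheds corneocytes, had 622, 400 and 429 on day 9, against 26, 9.5 and 10 on day 6 (4.33, limma adjusted p = 1.77e-06). These genes went up from near the added 10 in all arms alike. Alox15, a lipoxygenase (4.26), Lypd3, a surface protein of stratified epithelia (4.24), and Saa1, an acute-phase protein (3.69), rose with limma adjusted p of 2.49e-05 or less. Others among the 15 largest rises were Snurf, the junction and skin genes Cldn4, Cldn7, Krt7, Krt6a and Krt6b, and Tdgf1 and Lin28a of the pluripotency network.

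The 15 largest falls held several histone genes, Hist1h2ap, Hist1h2ao, Hist2h3c2 and Hist1h2ad, and genes of varied kinds with low signal on day 9. Hist1h2ao was listed at 0 in every day 9 library and at 47, 63 and 176.5 on day 6. Rhox8, an X-linked homeobox gene of the reproductive tract, fell to 9, 2.5 and 6 on day 9, against 112, 124 and 298.5 on day 6 (-3.46, limma adjusted p = 0.00026). Pigr, the receptor that carries immunoglobulins across epithelia, fell to 8, 1 and 4 on day 9, against 102.5, 113 and 247.5 on day 6 (-3.44, limma adjusted p = 0.000249). Gpnmb, a glycoprotein of lysosomes, fell to 195, 124 and 44 on day 9, against 1434.5, 893 and 257.5 on day 6 (-2.63, limma adjusted p = 7.49e-05). The first pair of these genes was near the added 10 in every arm on day 9, whereas Gpnmb kept its order of the arms. Axin2, a target and inhibitor of Wnt signalling, fell to 52.5, 41.5 and 8 on day 9, against 291, 241 and 110 on day 6 (-2.43, limma adjusted p = 8.18e-05). Runx3 (-2.26) and Lhx2 (-2.20), developmental transcription factors, Efna2, an ephrin (-2.33), Fyb, an adaptor of blood cells (-2.58), Synpo2l, a protein of striated muscle (-2.31), and Osbp2, an oxysterol-binding protein (-2.23), fell with limma adjusted p of 0.00125 or less. Nrg3, a neuregulin, was listed at 0, 8 and 0 on day 9, against 40, 83 and 51.5 on day 6.

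Pluripotency genes rose in number, but the arms differed in how far. Of 43 genes, 26 were higher on day 9 and 4 lower (Klf5, Tbx3, Klf2 and Zfp296), against 18.9% and 21% of all genes, with a median of 1.24, and without the Hnrnpk day 9 library 17 were higher. The lower count was 2 without the luciferase day 6, luciferase day 9 or lincRNA-p21 day 9 library. The median within arms was 1.87 with the Hnrnpk hairpin, 1.29 with the lincRNA-p21 hairpin and 0.53 with the luciferase hairpin, and the difference between arms was not tested. Tdgf1, the Nodal co-receptor, had 1662, 703.5 and 157.5 on day 9, against 20, 36.5 and 7 on day 6 (4.35, SE 0.51, limma adjusted p = 0.000519). Lin28a, the RNA-binding protein that blocks let-7 maturation, had 574, 159.5 and 21 on day 9 and was listed at 0, 1 and 1 on day 6 (3.77, SE 0.76, limma adjusted p = 0.00542). Utf1, a chromatin factor of embryonic cells, had 664, 198.5 and 17 on day 9, against 10, 7.5 and 3 on day 6 (3.23, SE 0.65, limma adjusted p = 0.0055). In all 3 genes the day 9 libraries were above the day 6 libraries, and the luciferase arm was the lowest on day 9.

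Esrrb, an orphan nuclear receptor of the naive state, had 265, 131 and 44 on day 9, against 10, 8 and 1 on day 6 (3.02, SE 0.32, limma adjusted p = 0.000361). Sall4, a zinc finger partner of Oct4, had 1161.5, 573 and 276 on day 9, against 126.5, 107 and 100 on day 6 (2.27, SE 0.30, limma adjusted p = 0.00089). Otx2, a homeobox factor of the primed state, rose by 2.60 (limma adjusted p = 0.00246). Nanog, the homeobox factor at the centre of the network, had 549.5, 351 and 238 on day 9, against 143, 121 and 179.5 on day 6 (1.24, SE 0.38, limma adjusted p = 0.03). The days did not overlap in Nanog, yet its call was lost without any one of 5 libraries. Its difference and limma adjusted p were 1.30 and 0.0896 without luciferase day 9, 0.86 and 0.104 without Hnrnpk day 6, and 1.14 and 0.112 without Hnrnpk day 9. Without lincRNA-p21 day 6 they were 1.04 and 0.14, and without lincRNA-p21 day 9 they were 1.28 and 0.0762. Alpl, the alkaline phosphatase that stains early colonies, had 1851, 1301.5 and 1870.5 on day 9, against 1163.5, 872 and 1325 on day 6, overlapping between arms and higher in each (0.58, limma adjusted p = 0.00516). Of 11 markers chosen for the pluripotent cell itself, 9 rose and 0 fell (18.9% and 21% of all genes). All 11 also belong to the pluripotency list above, so these calls are not further evidence. Leaving out a single library gave 6 to 11 rises. The summed signal of the 11 markers was 1590 to 5858.5 on day 9, against 659.5 to 829 on day 6.

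**Figure D3:**
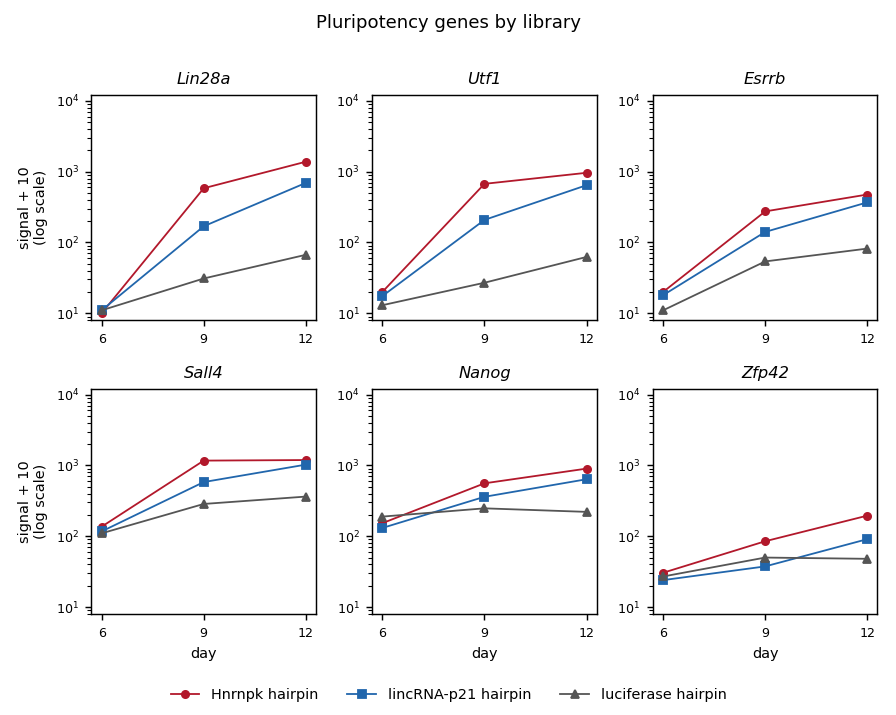
Signal with 10 added (log scale) on days 6, 9 and 12 for 6 pluripotency genes, 1 library per arm and day, joined by arm. Day 6 libraries lie close together and the arms separate on day 9, with the luciferase arm lowest for Lin28a, Utf1, Esrrb, Sall4 and Nanog but not for Zfp42.

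Transcripts of the delivered factors did not rise together. Signals of these genes join plasmid and chromosomal transcripts. Pou5f1, which encodes Oct4, had 44876 in all 3 libraries of day 9, against 17258.5, 19387.5 and 27901 on day 6 (1.09, SE 0.20, limma adjusted p = 0.00383). Its day 9 signal is a repeated value of the shared scale, so the size of the difference and its SE are not interpreted. Sox2 (-0.07, limma adjusted p = 0.626) and Klf4 (-0.25, limma adjusted p = 0.188) were not called. Myc had 17713, 21438.5 and 26978 on day 9, against 27901, 26881 and 56808.5 on day 6, lower in each arm (-0.69, limma adjusted p = 0.014). Without the luciferase day 9 library the Myc difference was -0.55 and not called (limma adjusted p = 0.081). Among 7 early lineage genes, 3 rose (Krt7, Elf5 and Tfap2c) and 1 fell, against 18.9% and 21% of all genes. Krt7 is also in the junction list and Tfap2c in that of epithelial regulators, so their calls are not further evidence. The Tfap2c call (0.99, limma adjusted p = 0.0305) was lost without any one of 5 libraries. Elf5, a trophoblast factor also active in gland epithelia, rose (1.80, limma adjusted p = 0.000407), and Gata6, a primitive endoderm factor also found in mesenchyme, fell (-1.11, limma adjusted p = 0.00282).

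Glycolysis and hypoxia-response genes were higher in 19 of 27 cases and lower in 0 (18.9% and 21% of all genes), with a median of 0.76 and similar medians in the arms (0.92, 0.77 and 0.76). Slc2a1, the glucose transporter GLUT1, had 22599, 18189.5 and 20248 on day 9, against 3613, 3873.5 and 6889.5 on day 6 (2.14, SE 0.19, limma adjusted p = 0.000174). Slc16a3, a lactate exporter, had 6487, 6133.5 and 6968.5 on day 9, against 806, 1474.5 and 2937.5 on day 6 (2.10, SE 0.29, limma adjusted p = 0.00105). The luciferase arm was the highest on day 6 in both genes, and the arms were close on day 9. Pdk1, which keeps pyruvate out of mitochondria, rose by 1.59 (limma adjusted p = 0.00173) and the glycolytic kinase Pgk1 by 1.42 (limma adjusted p = 0.000415). Hk2, a hexokinase (0.83, limma adjusted p = 0.0035), Aldoc, an aldolase (2.13, limma adjusted p = 0.000249), and the hypoxia-induced genes Bnip3 (1.83, limma adjusted p = 0.000457) and Egln3 (1.75, limma adjusted p = 0.000132) rose as well. Ldha, lactate dehydrogenase A, read 62250 in every day 9 library, a repeated value of the shared scale, so its size is not interpreted. Ldha is among the 19 rises, but its call was lost without any one of 5 libraries. Its difference is also the median of the list, which was 0.69 to 0.85 with a single library left out.

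Of 54 oxidative phosphorylation genes, 16 rose and 3 fell (Atp5b, Cox6a1 and Atp5d), against 18.9% and 21% of all genes, with a median of 0.15. The rises numbered 8, 9 and 10 without the luciferase day 9, Hnrnpk day 9 and Hnrnpk day 6 libraries, and the falls 5 without the Hnrnpk day 6 library. Ndufa9, a complex I subunit, rose by 0.87 (limma adjusted p = 0.000505), while Atp5b, the catalytic subunit of ATP synthase, fell by 0.84 (limma adjusted p = 0.0052). Of 80 cytosolic ribosomal protein genes, 23 were in the table, of which 14 rose and 2 fell (18.9% and 21% of all genes). There were 7 rises without the luciferase day 9 or the Hnrnpk day 9 library, and 1 fall without the luciferase day 6 library, any one library of day 9, or the lincRNA-p21 library of day 6 or 12. Rpl9 rose to 24081.5, 25868.5 and 28764 on day 9, against 7432, 11492.5 and 10865 on day 6 (1.42, limma adjusted p = 0.000257). Its processed copy Rpl9-ps7 fell to 1.5, 6.5 and 9 on day 9, against 81, 139 and 166.5 on day 6 (-3.12, limma adjusted p = 7.57e-05). Reads of such copies and their parents cannot be told apart with certainty, and the part of their assignment in the ribosomal protein values was not tested. Of 24 cholesterol synthesis genes, 2 rose and 4 fell, below the 18.9% and 21% of all genes. Without the luciferase day 6 library 11 of them fell, without the luciferase day 9 library or either lincRNA-p21 library of days 6 and 9 there were 2 falls, and without either the luciferase or the Hnrnpk library of day 9 there was 1 rise. The rises were Stard4, a sterol carrier, and Fdps, and the falls included the enzymes Sc5d, Nsdhl and Dhcr7, the last by 0.76 (limma adjusted p = 0.00205).

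Few cell cycle genes were called, and the arms moved in different directions. Among 41 genes of G1/S and DNA replication, 3 rose (Rfc4, Rpa2 and Pola1) and 1 fell (Ccne2), against 18.9% and 21% of all genes, with a median of 0.15. Among 41 mitotic genes, 2 rose (Ccnb1 and Anln) and 1 fell (Foxm1), against the same shares of all genes, with a median of 0.16. Within arms the G1/S median was 0.54 with the Hnrnpk hairpin, 0.18 with that against lincRNA-p21 and -0.37 in the luciferase arm, and the mitotic median was 0.62, 0.32 and -0.40. Without the Hnrnpk day 6 library the reported medians turned to -0.08 (G1/S) and -0.10 (mitotic). Mitotic genes were higher on day 9 in 40 of 41 cases with the Hnrnpk hairpin, 29 with the lincRNA-p21 hairpin and 4 with the luciferase hairpin. Mki67, the proliferation antigen Ki-67, had 11284, 10848.5 and 9660 on day 9, against 9130, 6483 and 18599 on day 6 (0.03, limma adjusted p = 0.94). The luciferase library had the highest Mki67 of day 6 and the lowest of day 9. Without the luciferase day 6 library, 20 G1/S genes and 24 mitotic genes were higher, and without the Hnrnpk day 9 library 0 were. The other libraries of days 6 and 9 gave 0 or 1 higher in each list when left out, and without the Hnrnpk day 6 library 5 mitotic genes were lower. Of 33 mitotic promoters found, 24 (72.7%) hold the CHR element TTTGAA and 26 (78.8%) a CCAAT box on either strand, whereas 11.5% and 38.9% of the 9287 promoters do. The E2F sequences TTCCCGC or TTGGCGC were in 18 of 33 G1/S promoters (54.5%) and in 12.6% of the 9287.

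**Figure D4:**
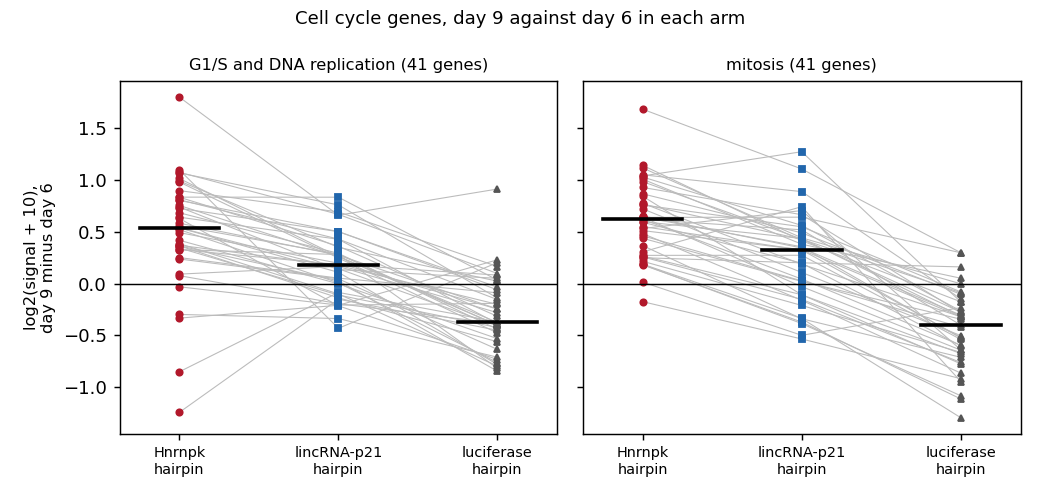
Difference in log2(signal + 10), day 9 minus day 6, for 41 genes of G1/S and DNA replication (left) and 41 mitotic genes (right), with a point per gene in each arm, grey lines joining a gene's points and black bars at the medians. Medians are above 0 in the Hnrnpk and lincRNA-p21 arms and below 0 in the luciferase arm.

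Of 10 genes of the cell cycle inhibitor and Rb families, 2 rose (Cdkn2a and Cdkn2d) and 2 fell (Cdkn2b and Cdkn2c), near the 18.9% and 21% of all genes. Cdkn2a, the locus of p16Ink4a and p19Arf that limits reprogramming, had 3703, 3729.5 and 5482 on day 9, against 2379.5, 2669.5 and 2523.5 on day 6 (0.74, SE 0.14, limma adjusted p = 0.00373). Every day 9 library of Cdkn2a exceeded every day 6 library, with the luciferase arm highest on day 9. Its neighbour on chromosome 4, Cdkn2b, which encodes p15Ink4b, had 765.5, 491 and 428 on day 9, against 1964, 916 and 543 on day 6, overlapping between arms (-0.86, limma adjusted p = 0.0123). That call was lost without the Hnrnpk day 9 library (-0.74, limma adjusted p = 0.0664) or the lincRNA-p21 day 6 library (-0.80, limma adjusted p = 0.0625). Cdkn2d, which encodes p19Ink4d, rose by 0.77 (limma adjusted p = 0.0013). The falls of this list numbered 4 without the luciferase day 6 library and 1 without the Hnrnpk day 9 or the lincRNA-p21 day 6 library.

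The list of p53 targets had 28 measured genes and includes Trp53, which encodes p53 itself. Of the 28, 2 rose (Sesn1 and Xpc) and 7 fell (18.9% and 21% of all genes). The median was -0.06, and 0.022 over genes with a mean of 100 or more. Trp53 was among the falls (-0.59, limma adjusted p = 0.0137). Its call was lost without the luciferase day 9 library or either lincRNA-p21 library of days 6 and 9. The falls numbered 3 without the luciferase day 9 library or either lincRNA-p21 library of days 6 and 9, and 4 without the Hnrnpk day 9 library. The rises numbered 6 without the Hnrnpk day 6 library and 1 without the lincRNA-p21 day 6 library or any one library of day 9. Gdf15, a stress-induced secreted factor, had 137, 36 and 38.5 on day 9, against 461, 141 and 77 on day 6 (-1.41, limma adjusted p = 0.00214). Ccng1, which encodes cyclin G1, fell by 0.78 (limma adjusted p = 0.00683), and Sesn1, a sestrin, rose by 0.78 (limma adjusted p = 0.00133). Of 17 secreted factors of senescent cells, 5 fell (Ccl2, Timp1, Mmp13, Csf1 and Tnfrsf1b) and 1 rose (21% and 18.9% of all genes). Without the luciferase day 6 library 10 fell, and 3 fell without the Hnrnpk day 9 library or either lincRNA-p21 library of days 6 and 9. Ccl2, a monocyte chemokine, fell to 516, 319.5 and 252.5 on day 9, against 1937.5, 893.5 and 625.5 on day 6 (-1.54, SE 0.16, limma adjusted p = 0.000333). Timp1, an inhibitor of matrix proteases, fell by 0.96 (limma adjusted p = 0.00265). Vegfa, the vascular growth factor, was the member that rose (1.05, limma adjusted p = 0.000595), and it belongs to the hypoxia list as well.

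Interferon-stimulated genes rose in 11 of 25 cases and fell in 1 (Stat2), against 18.9% and 21% of all genes, with a median of 0.32. Bst2, the antiviral tether tetherin, had 2430, 1460 and 1570 on day 9, against 602, 502 and 396.5 on day 6, without overlap (1.83, SE 0.15, limma adjusted p = 0.000115). Psmb8, a subunit of the immunoproteasome (1.74, limma adjusted p = 0.003), and Oas1a, a sensor of double-stranded RNA with close paralogs (1.15, limma adjusted p = 0.000375), rose. The Stat2 call was lost without any one of 6 libraries, which left 0 falls, and was kept without the Hnrnpk day 6, Hnrnpk day 12 or luciferase day 12 library. Of 19 integrated stress response genes, 3 rose and 4 fell (Cebpb, Atf5, Sesn2 and Ddit3), near the 18.9% and 21% of all genes. Cth, an enzyme of cysteine synthesis (1.54, limma adjusted p = 0.000143), Ddit4, an inhibitor of mTORC1 (1.40, limma adjusted p = 0.000205), and Slc7a11, the cystine transporter (1.14, limma adjusted p = 0.00193), rose, while Cebpb, a bZIP factor, fell (-1.27, limma adjusted p = 0.00482). Of 19 immediate early and AP-1 genes, 2 rose (Dusp6 and Etv5) and 5 fell (Fosl1, Fosb, Dusp1, Egr2 and Egr1), against 18.9% and 21% of all genes, with 8 falls without the luciferase day 6 library. There was 1 rise without the Hnrnpk day 6, the Hnrnpk day 9 or any one lincRNA-p21 library. Fosl1, the AP-1 subunit Fra-1, fell to 243, 337 and 209 on day 9, against 1180, 1397.5 and 847 on day 6 (-2.07, SE 0.14, limma adjusted p = 4.95e-05).

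Of 28 genes of the H3K9 and DNA methylation machinery, 5 rose (Tet1, Cbx3, Dnmt3a, Cbx5 and Kdm4b) and 1 fell (Mbd1), against 18.9% and 21% of all genes. The share that rose was near that of all genes. Cbx3, which encodes heterochromatin protein HP1 gamma, rose by 0.84 (limma adjusted p = 0.00176), and Dnmt3a, which encodes a DNA methyltransferase, by 0.70 (limma adjusted p = 0.00196). The paralog Dnmt3b had 1864.5, 598 and 191.5 on day 9, against 274.5, 238 and 313 on day 6, and was not called (1.11, limma adjusted p = 0.196). It was higher on day 9 in both knockdown arms and lower in the luciferase arm. Without the luciferase day 6 library 14 genes of this list rose, and 2 or 3 rose without the lincRNA-p21 day 6 library, the lincRNA-p21 day 9 library or either Hnrnpk library of those days. The Mbd1 call was lost without any one of 6 libraries. Of 22 Polycomb genes and H3K27 demethylases, 9 rose and 5 fell (Phc2, Pcgf2, Kdm6b, Bmi1 and Cbx2), against 18.9% and 21% of all genes, so that the share of falls was near that of all genes. The rises numbered 3 to 5 without any one library of day 9, the Hnrnpk or lincRNA-p21 day 6 library or the lincRNA-p21 day 12 library, and the falls 2 without the luciferase day 9 library. Jarid2 (0.86, limma adjusted p = 0.0045) and Suz12 (0.73, limma adjusted p = 0.00208), subunits of PRC2, rose, and Phc2, a subunit of PRC1, fell (-0.84, limma adjusted p = 0.000714). Of 19 imprinted growth genes, 1 rose (H19) and 5 fell (Plagl1, Gnas, Mest, Dcn and Ndn), against 18.9% and 21% of all genes. Plagl1, a zinc finger regulator of growth, fell to 1271, 1551 and 1288 on day 9, against 6966.5, 4998.5 and 5452 on day 6 (-2.07, SE 0.15, limma adjusted p = 7.49e-05). There were 0 rises without the luciferase day 9 library or either lincRNA-p21 library of days 6 and 9, 2 without the luciferase day 6 or the Hnrnpk day 12 library, and 3 falls without the Hnrnpk day 9 library.

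Few markers of other cell types could be read. For macrophages, 2 of 14 markers were measured, Itgam and Cd68, and neither was called, and the defining markers Ptprc and Csf1r were not analysed here. For endothelium 4 of 10 were measured, of which 3 rose (Cldn5, Vwf and Tek), against 18.9% of all genes, while Pecam1, Cdh5 and Kdr were not analysed here. The summed signal of the measured endothelial markers was 3022.5 to 3457.5 on day 9, against 2321.5 to 2566.5 on day 6. The Tek call was lost without any one of 4 libraries. For skeletal muscle 4 of 14 were measured, of which 1 rose (Tnni1) and 2 fell (Acta1 and Des), against 18.9% and 21% of all genes. Myod1 and Myog were not analysed here. Tnni1, a troponin of slow fibres, rose (2.01, limma adjusted p = 0.000717). For adipocytes 3 of 10 were measured, of which 1 rose (Cd36) and 2 fell (Lpl and Cebpa), against 18.9% and 21% of all genes. Adipoq and Pparg were not analysed here. Without the Hnrnpk day 9 or the lincRNA-p21 day 6 library 0 muscle and 0 adipocyte markers fell. Of 10 neural markers 9 fell and 0 rose (21% and 18.9% of all genes), and 5 fell without the Hnrnpk day 9 or the lincRNA-p21 day 9 library. Their summed signal was 16219 to 22010 on day 9, against 26732 to 49926 on day 6. Tubb3, a tubulin of neurons, fell to 614, 709 and 210.5 on day 9, against 1630, 1878 and 839 on day 6 (-1.58, SE 0.16, limma adjusted p = 0.00026).

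**Figure D5:**
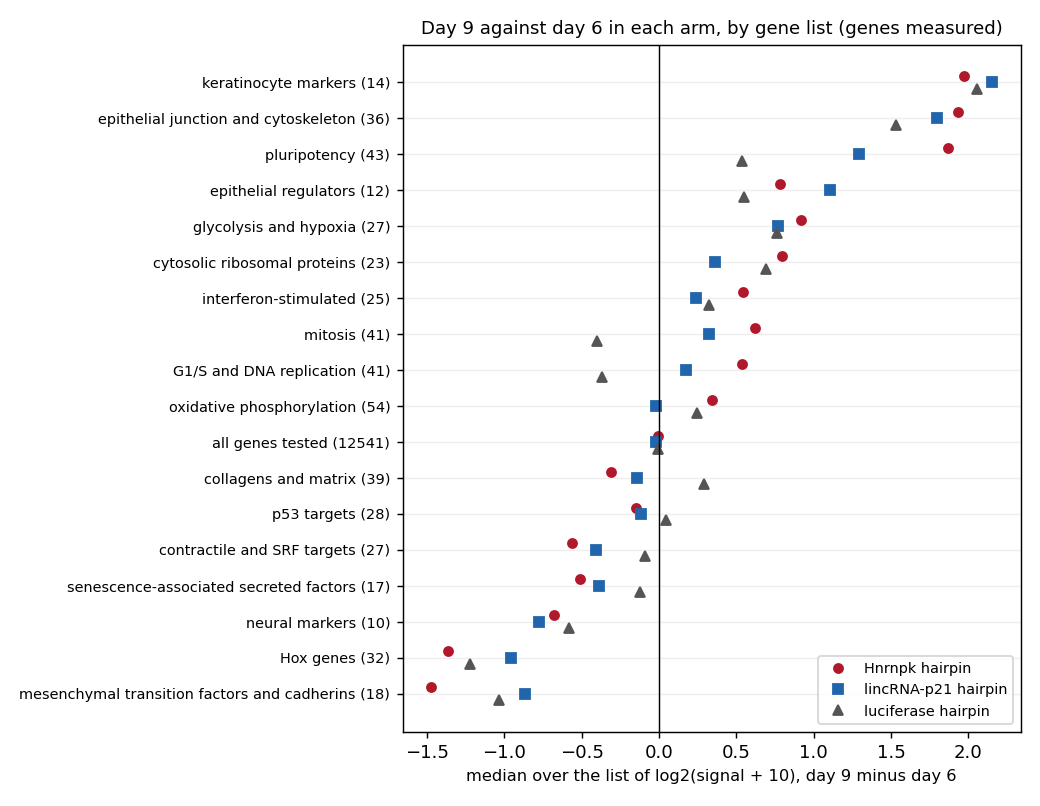
Median difference in log2(signal + 10), day 9 minus day 6, over the genes of each list, with a point for each arm and the number of genes measured in brackets. Epithelial and keratinocyte lists lie to the right and mesenchymal and Hox lists to the left in all 3 arms, whereas the pluripotency points are spread out and the cell cycle lists fall on both sides of 0.

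The following step, day 12 against day 9, shares the day 9 libraries with this one. It had 66 genes called higher (0.526%) and 16 lower (0.128%) of 12541. A test of the difference between the steps called 227 genes with the more positive change in the early step (1.81%) and 188 with the more negative change (1.5%), by limma at an adjusted p under 0.05. Among the junction genes 12 of 36 were called higher on day 12 than on day 9, and in 14 of 36 the early step was the larger by that test. Epcam, with 6010, 3157.5 and 3128 on day 12, changed by 2.93 in the early and 0.69 in the late step (limma adjusted p for the difference = 0.0031). In Krt7 the steps were 3.81 and 1.63 (limma adjusted p for the difference = 0.0031). For S100a14 they were 4.86 and 1.20 (limma adjusted p for the difference = 0.00042). Of the Hox genes 9 of 32 were called by that test with the more negative early step. The median of the 32 was -1.13 in the early and -0.30 in the late step. Hoxc9 changed by -1.99 and then -0.44 (limma adjusted p for the difference = 0.023). Of the 43 pluripotency genes, 1 was called with the more positive change in the early step and 2 with the more negative. The median of the 43 was 1.24 in the early and 0.45 in the late step. Sall4 changed by 2.27 and then 0.40 (limma adjusted p for the difference = 0.085). The number of genes called for the difference between the steps was 1914 without the luciferase day 6 library, 223 and 186 without the Hnrnpk and luciferase libraries of day 12, 80 and 35 without the lincRNA-p21 libraries of days 12 and 6, 11 without the Hnrnpk day 9 library and 2 without either other library of day 9. Calls of the late step numbered 421 without luciferase day 6, 225 without Hnrnpk day 6, 30 without Hnrnpk day 12, 11 without lincRNA-p21 day 6, and 1 to 3 without any one of the other 5 libraries. Without the term for the arm 3 and 7 genes were called for the difference between the steps.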

How the data were processed

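The deposited table gives a signal for 12550 genes in 9 libraries, scaled by the authors in a way that the sources used here do not give. The submitters' processing notes name RSEM 1.2.12, Bowtie 1.0.1 and mm10. Of the values 62.8% are whole and the rest end in 0.5. Libraries were grouped by the day and hairpin in their labels, and 0 value columns belonged to no library. Genes with a mean of 20 or more were tested in R 4.3.3 with limma 3.58.1 on log2(signal + 10), in a model with terms for arm and day over all 9 libraries (4 residual and 4.46 prior degrees of freedom), with an intensity trend and Benjamini-Hochberg adjustment, and the procedure was tested on simulated data. Shared hairpin arms pair the days, so the arm is the block. Promoters came from RefSeq and coordinates are on GRCm38.

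The members and the 33 gene lists were chosen with earlier results of these data known. The genes named were the hairpin targets, Cdkn1a and the delivered factors, the 15 largest called changes each way that had the same direction in all arms, up to 6 members of each list by size of difference, and the 8 largest each way for early minus late. Genes named only by number, small RNAs and pseudogenes were left out of the rankings, and a few genes that the rule names are not reported here. Cdh1, Epcam, Krt8, Krt18, Ocln, Nanog, Zfp42, Sall4, Alpl, Snai1, Snai2, Zeb1, Zeb2, Twist1, Hk2, Ldha, Pgk1, Mki67, Hoxd13, Snrpn, the pseudogenes, and the called members of lists with few calls were added after their values were seen, as were the lists of histones, pseudogenes and entries at 0. Alternatives were another pseudocount, filter, scaling, trend or block, days 6 and 9 alone, and each library or arm left out. Genes with close paralogs or processed copies, among them the keratins, claudins, histones, Oas and ribosomal protein genes, may share reads.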

Additional observations from a re-analysis of the deposited data

Results flagged for a closer look

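For some results the luciferase arm moved between day 6 and day 9 in the direction opposite to both knockdown arms. The difference between arms was not tested, and every value is a difference in log2(signal + 10), day 9 minus day 6, from 1 library per arm and day. The mitotic list had medians of 0.62 and 0.32 in the Hnrnpk and lincRNA-p21 arms and -0.40 in the luciferase arm, and the list of G1/S and DNA replication had 0.54, 0.18 and -0.37. Mki67 was at 0.31, 0.74 and -0.94, and the DNA methyltransferase gene Dnmt3b at 2.72, 1.29 and -0.68. The H3K9 and DNA methylation list had medians of 0.41, 0.23 and -0.11, and the Polycomb list 0.52, 0.18 and -0.064. Skeletal muscle markers, of which 4 were measured, had 0.43, 0.19 and -0.17. In the other direction, collagens and matrix genes had -0.31, -0.14 and 0.29, TGF-beta response genes -0.56, -0.20 and 0.10, and the fibroblast markers -0.26, -0.18 and 0.074. Differences nearer 0 were those of p53 targets (-0.15, -0.12 and 0.048), cholesterol synthesis (-0.25, -0.29 and 0.072) and immediate early genes (-0.18, -0.0058 and 0.011). The 2 measured macrophage markers had medians of -0.29, -0.015 and 0.71. The luciferase day 6 library was the one whose omission moved the counts of called cell cycle genes most.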

How the results depend on the processing

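Against 2376 genes higher and 2632 lower on day 9, the counts were 2255 to 2420 and 2576 to 2634 with a pseudocount of 1 or 50, scaling to equal medians or quantiles, or no intensity trend. No filter gave 2377 and 2638, a mean of 100 or more 2194 and 2309, and days 6 and 9 alone 2148 and 2378. Dropping the arm term lost 39 calls of named genes, and each of these other settings 4 or fewer. Without the replicate block for the arm they were 1670 and 1832. With 1 library or 1 arm left out they ranged over 887 to 2672 higher and 891 to 2933 lower, lowest without the lincRNA-p21 arm. The later step was less stable. Leaving out a library or an arm gave 0 to 295 genes higher and 0 to 126 lower on day 12, and 0 to 976 and 0 to 938 genes for the difference between steps, positive and negative. A pseudocount of 1 gave 38 higher on day 12. Without the replicate block 0 and 0 genes were called for day 12 by limma, with 854 at an unadjusted p under 0.05, and 3 and 7 for the difference between steps. Without the lincRNA-p21 arm limma called 0 in either contrast, with 600 and 1331 at an unadjusted p under 0.05. Of 726 recomputed list medians 15 changed sign, over 8 lists. The median of the list of cyclin-dependent kinase inhibitors and Rb family, -0.14, was 0.018 without the luciferase arm, and -0.23 to -0.00063 with 1 library left out. Without the Hnrnpk arm the medians of G1/S and DNA replication (-0.059), mitosis (-0.085), collagens and matrix (0.076) and immediate early genes (0.018) had the opposite sign, and without the luciferase arm that of the macrophage markers (-0.15). The other changes of sign came with 1 library left out, or, for p53 targets, with the filter at a mean of 100. Of 196 called genes named by rule or added, 65 lost the call without some library or arm. The cause of these changes was not tested. Depth is unknown, so no counting error can be given.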
